A study of Mus musculus with 4 samples.

Results

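Among 6965 single cells purified as CD8 T cells from the spleen and tumour of mouse bone marrow chimeras, 62 cells (0.890%, exact 95% interval 0.683% to 1.14%) carried MHC class II or plasmacytoid dendritic cell transcripts. A cell was a member when at least 3 of 5 markers (Siglech, Ly6d, H2-Aa, H2-Ab1 and H2-Eb1) had a value above 0 and fewer than 2 of the 3 melanoma genes Dct, Pmel and Mlana did. The other 6903 cells were the comparison. Members were split by Siglech, the gene of an Ig-like lectin used to mark mouse plasmacytoid dendritic cells: 32 members had a Siglech value (51.6%, interval 38.6% to 64.5%; the Siglech members) and 30 had none (the Siglech 0 members). With 4 markers needed in place of 3, the Siglech share of members was 81.6%. Only 3 of the 5 markers are class II genes, so a limit of 4 needs Siglech or Ly6d and itself favours Siglech members.

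The chimeras were lethally irradiated (8 Gy) C57BL/6 mice reconstituted with bone marrow from Cd4creCd137fl/flROSA26tomato and Cd137fl/flROSA26tomato donors. The reconstitution time was 7 weeks. Each library pooled cells of 7 mice taken 21 days after subcutaneous injection of B16K1 melanoma cells. CD8 T cells were enriched with a mouse CD8+ T cell isolation kit, sorted on the tomato reporter and sequenced by 10x 5′ single-cell RNA-seq. The 4 libraries were tumour CD137 minus (1262 cells, Cre donor), tumour CD137 plus (2766 cells, donor without Cre), spleen CD137 minus (2464 cells, Cre donor) and spleen CD137 plus (473 cells, donor without Cre). Both donors carried the floxed Cd137 allele and the ROSA26 tomato allele. The labels give the tomato colour of the minus and plus fractions in opposite ways, so the groups are named by CD137 status alone. Cre was driven from Cd4, a gene of T lineage cells, and whether it had acted in the members was not tested. Each tissue and CD137 group was 1 library with no mouse assigned to a cell in the table, and the members were chosen from the values that set them against the other cells. No test was therefore run, and all values are descriptions. Intervals of shares cover counting error over cells only. Intervals of CPM and ratios cover the counting error of summed counts only and hold no spread between cells or mice. They are therefore too narrow where a few cells hold most counts.

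MHC class II molecules are heterodimers that present peptides from endosomes to CD4 T cells. H2-Aa and H2-Ab1 encode the I-A chains, H2-Eb1 the I-E beta chain, Cd74 the invariant chain that guards the groove, and H2-DMa, H2-DMb1 and H2-DMb2 the chaperone that loads peptides. Dendritic cells, B cells and activated macrophages make them, and mouse T cells make little. Plasmacytoid dendritic cells sense nucleic acids in endosomes and secrete type I interferon; their identity depends on the factors Tcf4, Irf8, Spib and Bcl11a, and they carry Siglech, Bst2, Ccr9 and Ly6d. Mouse plasmacytoid cells and one class of conventional dendritic cells can carry CD8 alpha without a T cell receptor.

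The 3 class II genes of the rule lie on chromosome 17 (mm10, GENCODE vM21) and are protein coding: H2-Aa at chr17:34282744-34287823 on the minus strand, H2-Ab1 at chr17:34257689-34269419 and H2-Eb1 at chr17:34305867-34316674 on the plus strand. Siglech is at chr7:55768178-55778925 (plus strand) and Ly6d at chr15:74762056-74763620 (minus strand). The bases before the starts of H2-Aa and H2-Eb1 are shown because these genes had values in the same members. Capitals mark ATTGG or its reverse CCAAT, the core of the Y box known from class II promoters, searched on both strands. Sequences are from RefSeq (GRCm38.p6), which had entries for H2-Aa, H2-Eb1 and H2-DMa.
H2-Aa (chr17:34287824-34288073, minus strand): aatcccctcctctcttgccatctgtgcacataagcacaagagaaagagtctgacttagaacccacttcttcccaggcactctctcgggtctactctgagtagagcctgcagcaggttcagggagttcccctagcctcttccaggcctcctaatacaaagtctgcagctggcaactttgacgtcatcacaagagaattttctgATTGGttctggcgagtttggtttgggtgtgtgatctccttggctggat
H2-Eb1 (chr17:34305617-34305866, plus strand): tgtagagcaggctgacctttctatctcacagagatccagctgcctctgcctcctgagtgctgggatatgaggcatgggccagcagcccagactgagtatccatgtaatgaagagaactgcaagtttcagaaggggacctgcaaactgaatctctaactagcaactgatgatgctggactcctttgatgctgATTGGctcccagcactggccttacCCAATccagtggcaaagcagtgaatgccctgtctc
The match began 48 bases before the start in H2-Aa and 59 bases before it in H2-Eb1, which also held a reverse match 35 bases before its start. Of 2 H2-DMa windows, the first held no match and the second held 1 match, 198 bases before the start. The 5 letters stood in 33.8% of all 32851 windows of 250 bases, so a match is a description of the sequence and not a binding site.

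The deposited values were natural logs of 1 plus a whole number. Converted back, a cell summed to between 2949 and 5872, with library medians from 3702 to 5344 and from 1308 to 1633 genes per cell. Sums within a library lay in a narrow band, so these whole numbers may be depth-corrected and not the reads observed; that was not tested. Genes were listed at 0 in every cell of a library when fewer than 5 of its cells had a value, apart from 8 genes with 4 cells in spleen CD137 minus. Such genes numbered from 377 (tumour CD137 plus) to 2942 (spleen CD137 plus). Siglech and Ly6d were among them in spleen CD137 plus, so its members could enter only through the 3 class II genes and always fell in the Siglech 0 group. Tnfrsf9, the gene of CD137, stood in the other cells at 58.0 CPM in tumour CD137 minus and 423 CPM in tumour CD137 plus, and at 2.35 CPM in spleen CD137 minus and 16.3 CPM in spleen CD137 plus (CPM, summed whole numbers per 1000000). In all, 38 cells shared a barcode with another library, and 1 of them was a member.

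Members were a higher share of the cells of both tumour libraries than of both spleen libraries. They were 14 of 1262 cells in tumour CD137 minus (1.11%, interval 0.608% to 1.85%), 36 of 2766 in tumour CD137 plus (1.30%, 0.913% to 1.80%), 10 of 2464 in spleen CD137 minus (0.406%, 0.195% to 0.745%) and 2 of 473 in spleen CD137 plus (0.423%, 0.0513% to 1.52%). The pooled share was 1.24% in tumour (0.923% to 1.63%) and 0.409% in spleen (0.211% to 0.713%), with intervals over cells pooled from 2 libraries and not over mice. The interval of spleen CD137 plus, where 2 of the 5 markers were listed at 0 throughout, overlapped those of both tumour libraries, and within a tissue the CD137 minus and plus intervals overlapped widely. The interval of spleen CD137 minus overlapped that of tumour CD137 minus. Siglech had a value in 9 of 14 members of tumour CD137 minus, 19 of 36 of tumour CD137 plus, 4 of 10 of spleen CD137 minus and 0 of 2 of spleen CD137 plus, where it was listed at 0. Both the number of antigen-presenting cells in the tissues and how many passed the CD8 isolation and the sort can set these shares, and they cannot be told apart here.

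**Figure D1:**
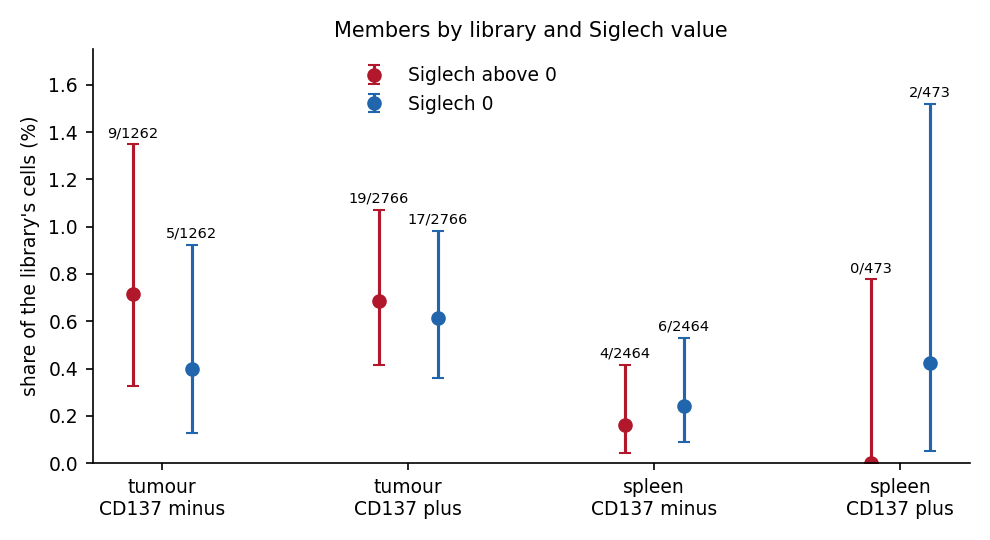
Share of each library's cells that were members with a Siglech value (red, left of each pair) and without one (blue); points are shares in percent, bars are exact 95% intervals, and labels give members over cells. The Siglech shares of the tumour libraries, 0.713% (CD137 minus) and 0.687% (CD137 plus), lay above the 0.162% of spleen CD137 minus. The interval of spleen CD137 minus overlapped those of both tumour libraries.

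Values on both sides of the rule's limit are a description, since H2-Aa is one of its markers. Of the members, 24 had exactly 3 markers, 11 had 4 and 27 had all 5. Cells just inside the limit, with 3 markers, had a median H2-Aa of 19 and a median Cd74 of 44 (whole numbers per cell). The 31 cells just outside, with 2 markers, had a median H2-Aa of 1 and a median Cd74 of 1, and 30 of them had a Cd3e value. The limit on melanoma genes dropped 3 cells. Among the other 6903 cells, Siglech had a value in 35 cells (0.507%), with a median of 1 in those cells, and H2-Aa in 182 cells (2.64%); the median total was 4324 in members and 4056 in the other cells.

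The chosen markers are described first. H2-Aa had a value in all 62 members, H2-Ab1 in 61, H2-Eb1 in 58, Ly6d in 38 and Siglech in 32. By library, H2-Aa stood in the members at 2580 CPM (tumour CD137 minus), 5665 CPM (tumour CD137 plus), 7649 CPM (spleen CD137 minus) and 5823 CPM (spleen CD137 plus), against 5.70 CPM (tumour CD137 minus), 14.1 CPM (tumour CD137 plus), 3.88 CPM (spleen CD137 minus) and 4.89 CPM (spleen CD137 plus) in the other cells. Siglech stood at 1480 CPM in members and 2.18 CPM in other cells of tumour CD137 minus, at 1134 CPM in members and 3.16 CPM in other cells of tumour CD137 plus, and at 1476 CPM in members and 0.511 CPM in other cells of spleen CD137 minus. In H2-Aa the members lay above the other cells in every library, a direction that the rule fixed.

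Comparing members with the other cells, genes counted as measured were those that reached 50 CPM and were detected in 10% or more of the members or of the other cells. A gene was called at a log2 ratio of CPM (pseudocount 1 CPM) of 1 or more in size. Of 3494 measured genes, 766 (21.9%) were higher in members and 213 (6.10%) were lower, with a median log2 ratio of 0.31. These shares are the background for each count of list genes, and a gene low in the other cells could be measured only if it was high in members. Without the tumour CD137 plus library, 1158 genes were higher.

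The class II pathway outside the rule was higher in members in all 11 measured genes of the 14 in the table (median log2 ratio 4.94). The median of all measured genes was 0.31. Cd74 had a value in all 62 members, with 14111 CPM in members and 70.7 CPM in the other cells. By library it was 10193 CPM in members of tumour CD137 minus, 14070 CPM in tumour CD137 plus, 20747 CPM in spleen CD137 minus and 17562 CPM in spleen CD137 plus. The other cells had 77.3 CPM in tumour CD137 minus, 135 CPM in tumour CD137 plus, 14.0 CPM in spleen CD137 minus and 15.9 CPM in spleen CD137 plus. Every member population lay above every population of other cells, and the other cells of the tumour lay above those of the spleen. H2-DMb1 stood at 437 CPM in members and 0.847 CPM in other cells, H2-DMb2 at 211 CPM in members and 0.494 CPM in other cells, and H2-DMa at 558 CPM in members and 60.3 CPM in other cells. Ifi30, a thiol reductase of antigen processing, stood at 879 CPM in members and 27.6 CPM in other cells. Ciita, the class II transactivator, stood at 60.3 CPM in members and 0.282 CPM in other cells. By contrast, none of the 10 measured genes of class I presentation and none of the 9 measured housekeeping genes were called (medians 0.25 and 0.08).

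Genes of plasmacytoid dendritic cells were higher in members in 23 of 24 genes of their list (median 4.99), and the remaining gene was not called. Bst2, tetherin, stood at 2772 CPM in members and 155 CPM in other cells. Tcf4, the E protein that specifies plasmacytoid cells, stood at 411 CPM in members and 5.75 CPM in other cells. Irf8 stood at 1633 CPM in members and 62.1 CPM in other cells, and Ccr9, a gut-homing chemokine receptor, at 528 CPM in members and 24.3 CPM in other cells. Among genes of nucleic acid sensing and interferon receptors, 8 of 9 were higher (median 2.26), including Unc93b1, the chaperone of endosomal Toll-like receptors, at 717 CPM in members and 14.8 CPM in other cells, and Irf7 at 260 CPM in members and 91.5 CPM in other cells. Of 11 measured interferon-stimulated genes, 4 were higher and 1 was lower (median 0.10), with Isg15 at 94.3 CPM in members and 116 CPM in other cells. Genes of protein secretion and folding were higher in 6 of 12 (median 1.04), among them Hsp90b1, Herpud1 and Sdf2l1.

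The 25 named genes furthest above the other cells held 6 genes of the plasmacytoid list and 3 of the class II list. Of the 25, members exceeded the other cells of their own library in 24 of 24 genes in tumour CD137 minus, 25 of 25 in tumour CD137 plus, 18 of 18 in spleen CD137 minus and 6 of 6 in spleen CD137 plus; the remaining genes were listed at 0 in that library. Cox6a2, a cytochrome c oxidase subunit, had 1188 CPM in members and 1.06 CPM in other cells, a ratio of 1122 (counting interval 771 to 1691). Klk1, a kallikrein, had 860 CPM in members and 1.13 CPM in other cells. Tyrobp, the adaptor DAP12, stood in members at 3990 CPM (tumour CD137 minus), 3157 CPM (tumour CD137 plus), 2442 CPM (spleen CD137 minus) and 6762 CPM (spleen CD137 plus). In the other cells Tyrobp stood at 7.37 CPM (tumour CD137 minus), 13.4 CPM (tumour CD137 plus), 10.3 CPM (spleen CD137 minus) and 8.14 CPM (spleen CD137 plus), so all member values lay above all others.

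Further named genes belonged to endolysosomes and lipid handling. Ctsh, cathepsin H, had 996 CPM in members and 1.27 CPM in other cells. Pld4, an endolysosomal exonuclease, had 1007 CPM in members and 2.01 CPM in other cells. The others in this group were Mpeg1 (perforin-2), Rnase6, Cybb (the NADPH oxidase chain gp91phox), Alox5ap of leukotriene synthesis and the phospholipid transfer protein Pltp, with 426 to 1399 CPM in members and 0.917 to 8.15 CPM in other cells. Receptors and adaptors made up a further group. Cd300c, Fcrla, Blnk, Ly86, Slamf9, Sdc4 and Tifa had 128 to 498 CPM in members and 0.212 to 2.47 CPM in other cells. Csf2rb and Csf2rb2, the near-identical beta chains of the GM-CSF and IL-3 receptors whose reads may be split between the copies, had 132 and 136 CPM in members and 0.212 and 0.176 CPM in other cells. Ccnd1 (cyclin D1), Mef2c (a transcription factor of myeloid and B cells) and Iglc3 (an immunoglobulin lambda constant segment, near-identical to Iglc2) had 320, 215 and 422 CPM in members and 1.13, 1.38 and 0.847 CPM in other cells.

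T cell genes were lower in members, in 18 of 21 (median −1.78), and the 3 not called were Trbc1, Cd8a and Cd8b1. Lef1, a factor of naive T cells, had 2 counts in members, at 7.54 CPM, and 280 CPM in other cells, a level 37.2-fold lower (counting interval 10.3 to 307). Both counts came from spleen CD137 minus. Tcf7, a factor of naive and memory T cells, had 26.4 CPM in members and 192 CPM in other cells. Cd247, the zeta chain, had 33.9 CPM in members and 263 CPM in other cells, and Dgka, a diacylglycerol kinase, had 3 counts in members, 14.2-fold lower (4.86 to 69.0). These pooled ratios mix tissues, since 50 of the 62 members were from tumour. Lef1, Tcf7 and Dgka were higher in other cells of the spleen than of the tumour. Within tumour CD137 minus, Dgka stood at 14.1 CPM in members and 74.9 CPM in other cells. Within tumour CD137 plus it stood at 13.7 and 75.7 CPM. Ccl5, a chemokine of memory and effector T cells, had 720 CPM in members and 4869 CPM in other cells. The named genes Fam189b, Ms4a6b, Dapl1 and Klk8 had 15.1 to 67.9 CPM in members and 159 to 464 CPM in other cells. Of the effector list, 6 of 10 genes were lower and Ccl4 alone was higher, at 1124 CPM in members and 340 CPM in other cells. Of the naive list 6 of 10, and of the exhaustion list 2 of 9, were lower. Within each library, the summed CPM of the T cell, effector and naive lists was lower in members. The sum of the exhaustion list was lower in members of tumour CD137 plus (1907 against 3890 CPM) and spleen CD137 minus (134 against 192 CPM). It was higher in members of tumour CD137 minus (2707 against 2645 CPM) and spleen CD137 plus (470 against 318 CPM).

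**Figure D2:**
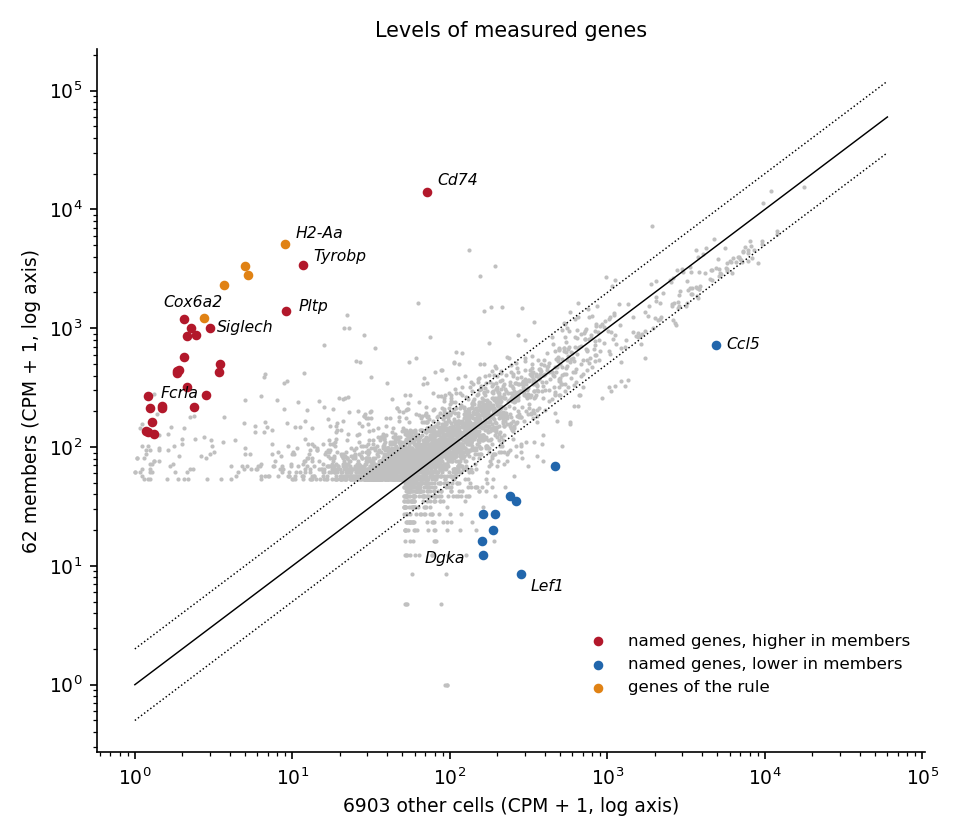
Level of each measured gene in the 62 members (y) against the 6903 other cells (x), in CPM plus 1 on log axes; the solid line marks equal levels and the dotted lines a log2 ratio of 1 in either direction. Cd74 stands at 14111 CPM in members and 70.7 CPM in other cells, and Ccl5 at 720 CPM in members and 4869 CPM in other cells.

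The members are described next by lists of other cell types, since the CD8 isolation is meant to leave antigen-presenting cells out. Genes low in the other cells were measured only through the members, so their direction was nearly fixed. Markers of conventional dendritic cells were higher in 5 of 6 (general), 3 of 3 (type 1), 2 of 2 (type 2) and 3 of 4 (migratory) measured genes. The type 1 genes (Clec9a, Wdfy4 and Cd24a) and type 2 genes (Clec10a and Clec12a) had values in 0.029% to 0.971% of other cells. Both type 2 genes stood mainly in Siglech members: Clec10a in 19 of 32 and Clec12a in 15 of 32, against 1 of 30 and 5 of 30 Siglech 0 members. B cell genes were higher in 4 of 5, plasma cell genes in 2 of 2 (Xbp1 and Mzb1, which plasmacytoid cells also make), macrophage genes in 2 of 3, and NK cell genes in 2 of 3 (Tyrobp and Fcer1g, shared with myeloid cells). Costimulation genes were higher in 2 of 2, proliferation genes in 2 of 5 and CD4 and regulatory T cell genes in 0 of 2. No gene of the neutrophil, erythroid, fibroblast and endothelial, or melanoma lists was measured. Jchain, Sdc1, Cd22, Itgam and Foxp3 had no value in members, and each was listed at 0 in every cell of 2 or 3 libraries.

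With every list gene counted, Siglech members had values of a median of 18 of the 24 plasmacytoid genes, Siglech 0 members of 3 and other cells of 3. At least 3 of the 24 genes had a value in 32 of 32 Siglech members, 18 of 30 Siglech 0 members and 4198 of 6903 other cells (60.8%). Each member was then scored for carrying at least 3 genes of a list, counting only list genes with a value in under 5% of the other cells (for the T cell list, which holds the CD8 genes too, at least 3 genes at a value of 2 or more). By that count, 31 of 32 Siglech members and 3 of 30 Siglech 0 members carried the plasmacytoid list. The 9 of 6903 other cells that did so are no comparison, since leaving out genes common in those cells keeps their count low. No member carried none of the 6 lists counted. Of the Siglech members, 21 carried the plasmacytoid list alone, 6 also the T cell list, 3 also type 1 dendritic genes and 1 also B cell genes, while 1 carried the T cell list alone. The Siglech members are called plasmacytoid dendritic cell-like from these markers, and the Siglech 0 members carried a mixture of lists.

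**Figure D3:**
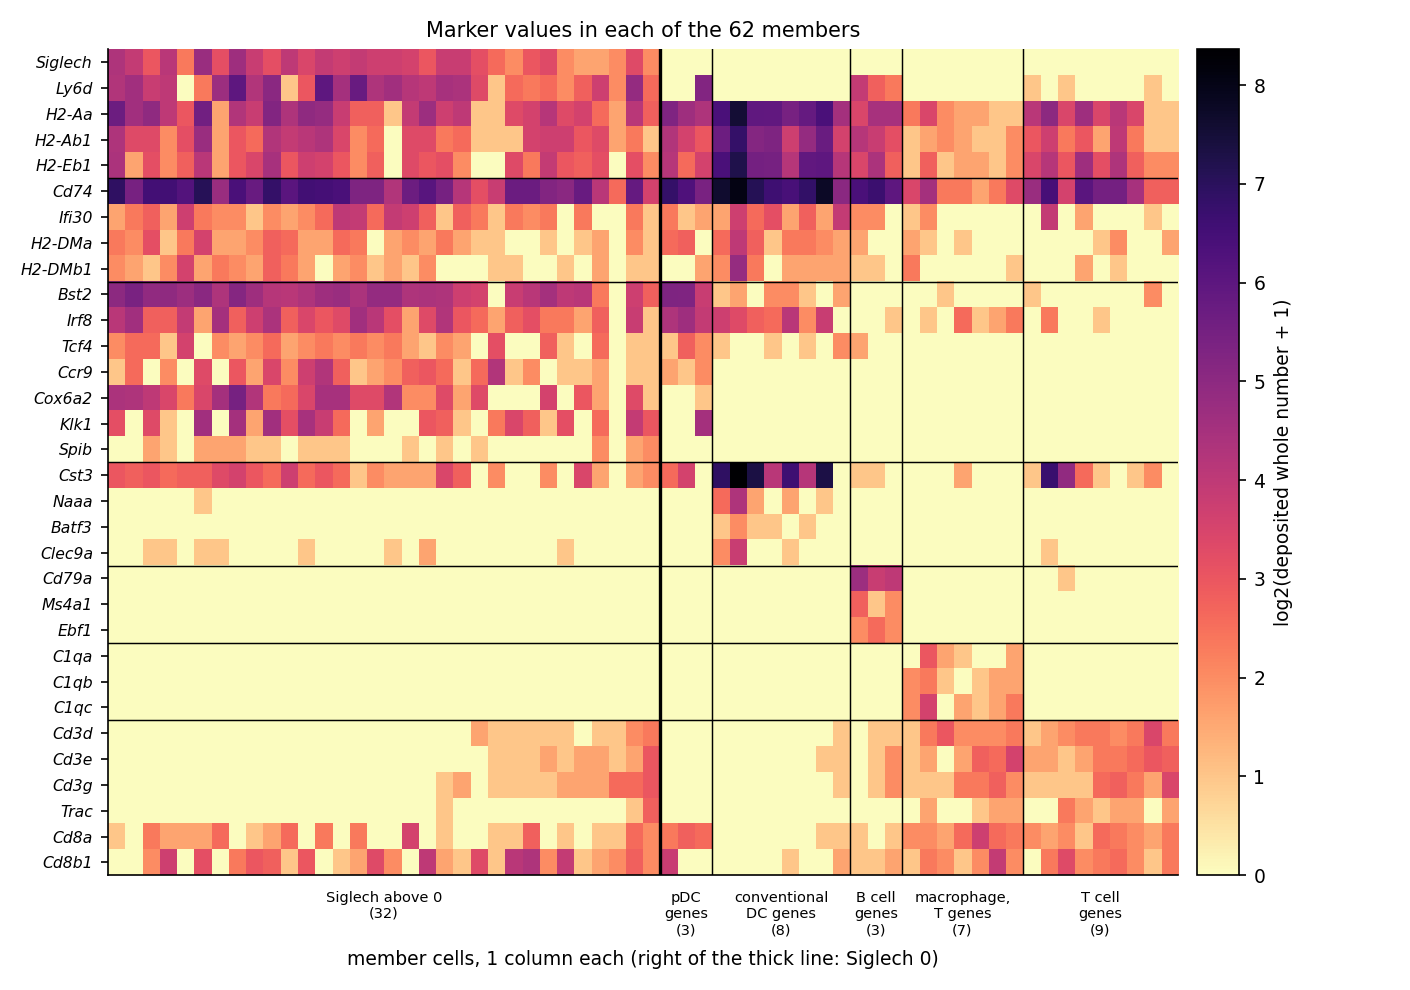
Values of marker genes (rows, grouped by list) in each of the 62 members (columns), as log2 of the deposited whole number plus 1; columns left of the thick line are the 32 Siglech members, and those right of it are the 30 Siglech 0 members, split by the lists they carry. Bst2, Cox6a2 and Klk1 stand mainly in the left block, while Cd79a, C1qa to C1qc and high Cst3 stand mainly in separate groups of Siglech 0 members.

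Among the Siglech 0 members, 3 carried plasmacytoid genes. Both members of spleen CD137 plus were among them. Their Bst2 values were 39 and 38, their Irf8 values 19 and 24, their Tyrobp values 27 and 45 and their Cd74 values 110 and 77, and neither had a value of Cd3d, Cd3e or Cd3g. Their Cd8a values were 4 and 6 and their Cd8b1 values 13 and 0. The T cell list, which holds the CD8 genes, was carried by 1 of these 2 members. Siglech, Ly6d, Cox6a2 and Klk1 were listed at 0 in every cell of their library, so their place in the Siglech 0 group follows from the table and not from a measured absence.

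A further 8 Siglech 0 members, 6 in tumour CD137 plus and 2 in spleen CD137 minus, carried conventional dendritic genes. Their H2-Aa values ran from 22 to 184 (median 59.5), against a range of 1 to 50 (median 13) in the Siglech members. Cst3, cystatin C, reached 328 and had a median of 108. Clec9a, a receptor of type 1 dendritic cells for dead cells, had a value in 3 of the 8 and reached 13, and Batf3, a factor of the same cells, had a value in 5. Of the 8, 6 had no CD3 gene value. In tumour CD137 plus, 2 of the 8 had Fscn1 values of 26 and 16 with Ccr7 values of 7 and 16, genes of migratory dendritic cells.

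B cell genes were carried by 3 Siglech 0 members, all from spleen CD137 minus. T cell genes stood in them too: 2 of the 3 had a CD3 value, all 3 had a Cd8b1 value and 1 also carried the T cell list. Their Cd79a values were 13, 25 and 15 and their Ms4a1 values 1, 6 and 3. Ebf1, a B lineage factor, was 5, 3 and 3. Ly6d, which B lineage cells also carry, was 6, 14 and 4 in these cells.

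The remaining 16 Siglech 0 members carried T cell genes. In all, 18 of the 30 Siglech 0 members carried the T cell list. Of these, 7 also carried macrophage genes, all from tumour (2 from CD137 minus and 5 from CD137 plus). C1qc, a complement chain of macrophages, had a value in 6 of the 7 and reached 11, but H2-Aa had a median of 2 and Cd74 a median of 4, low values near those of the cells just outside the rule, and all 7 had CD3 and Cd8a values. The other 9 carried T cell genes without another list (3 from tumour CD137 minus, 5 from tumour CD137 plus and 1 from spleen CD137 minus), with H2-Aa from 1 to 31 and all 3 CD3 genes in each. One of them, in tumour CD137 minus, had Cst3 at 105 and Fscn1 at 49 beside Cd3e at 2 and Cd8b1 at 4. Whether such members were single cells or droplets with more than 1 cell was not tested.

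Setting the Siglech members against the Siglech 0 members, 838 of 3929 measured genes (21.3%) were higher and 668 (17.0%) were lower, with a median log2 ratio of 0.04. Without the tumour CD137 plus library, 1116 genes were lower. The plasmacytoid list was higher in 22 of 24 (median 2.94, or 2.84 with genes at 0 set to the floor of 3 counts), and the 2 not called were Irf8 and Runx2. The class II list was higher in 0 of 11 and lower in 4 (H2-DMb2, H2-Ob, Ciita and Cd83). Without Siglech, a member needed values in more of Ly6d and the class II rule genes than with it. The rule therefore bears on the levels of these genes in the split, which are a description. For the rule genes, Ly6d had 3918 CPM in Siglech members and 505 CPM in Siglech 0 members, while H2-Aa had 3541 CPM in Siglech members and 6907 CPM in Siglech 0 members. H2-Ab1 had 1859 CPM in Siglech members and 3830 CPM in Siglech 0 members, and H2-Eb1 1617 CPM in Siglech members and 5256 CPM in Siglech 0 members. In tumour CD137 minus the order of these class II genes was the other way: H2-Aa had 3007 CPM in Siglech members and 1797 CPM in Siglech 0 members, H2-Ab1 1525 CPM in Siglech members and 679 CPM in Siglech 0 members, and H2-Eb1 1308 CPM in Siglech members and 1238 CPM in Siglech 0 members. That library held none of the 8 conventional dendritic members.

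The 12 genes furthest above 0 in this split had varied roles, among them the transcription factors Bcl11a and Spib, the enzymes Upb1 and Kmo, the receptor chain Csf2rb and the long non-coding RNA Ftx. Cox6a2 had 314 counts in Siglech members, at 2237 CPM, and 1 count in Siglech 0 members, at 8.01 CPM, a ratio of 279 (counting interval 49.7 to 11061). Tifa, Csf2rb, Upb1, Spns3, Bcl11a, Spib, Foxr1, Sema4b, Ftx, Kmo and Cd300lf had no value in any Siglech 0 member. For 9 of these 11 genes part of the zeros were not measured, because the gene was listed at 0 in every cell of 1 or more libraries: Tifa, Csf2rb, Spib, Foxr1 and Kmo in both spleen libraries, with 8 Siglech 0 members, and Bcl11a in 3 libraries, with 13. Over the remaining libraries (chosen after seeing the data), and with the floor of 3 counts over their 22 Siglech 0 members, Tifa was at least 10.7-fold higher, Csf2rb at least 8.73-fold and Spib at least 6.23-fold. Bcl11a was at least 7.22-fold higher over the 17 Siglech 0 members of tumour CD137 plus. Spib, an Ets factor of plasmacytoid and B cells, had a value in 16 of 32 Siglech members, and Spns3 in 22. Of the sensing list, 8 of 10 genes were higher and none was lower, with Tlr7, the endosomal receptor for single-stranded RNA, at 92.6 CPM in Siglech members and 0 in Siglech 0 members. Of the secretory list, 9 of 12 were higher (median 1.10).

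The genes furthest below 0 were Cd81, Plscr1, Cd9, Lpcat1 and Zbtb46, all at 0 in the 32 Siglech members. Against the floor of 3 counts, Cd81, a tetraspanin, was at least 9.37-fold lower and Zbtb46, a factor of conventional dendritic cells, at least 4.12-fold lower. Bcl2a1b (a survival gene with near-identical copies), Pglyrp1, Gimap3, Eea1, Acot7 and Rbpj each had 1 count in Siglech members and from 16 to 59 counts in Siglech 0 members. Marcksl1 had 3 counts in Siglech members and 52 in Siglech 0 members. Cst3, a pan dendritic gene, stood at a pooled 1047 CPM in Siglech members and 8469 CPM in Siglech 0 members. Per cell the order was the other way. Cst3 had a value in 84.4% of Siglech members (median 5) and 63.3% of Siglech 0 members (median 1, highest value 328). The 8 Siglech 0 members with conventional dendritic genes had Cst3 at 27065 CPM. Pan dendritic genes were lower in Siglech members in 8 of 10 (median −3.28, or −1.82 at the floor). Lower too were 6 of 6 migratory genes, 8 of 8 costimulation genes, 10 of 11 proliferation genes, 8 of 9 exhaustion genes, 7 of 9 effector genes, 5 of 6 macrophage genes and 16 of 18 T cell genes. Of all 668 lower genes, 529 met the filter on low values only in the Siglech 0 members, so that their direction was nearly fixed: this held for 3 of the 6 migratory, 8 of the 8 costimulation, 9 of the 10 proliferation, 5 of the 8 exhaustion, 3 of the 7 effector, 4 of the 5 macrophage and 10 of the 16 T cell genes. The same held for 6 of the 8 pan dendritic, 3 of the 4 class II and 4 of the 4 B cell genes that were lower. Likewise 641 of the 838 higher genes met that filter only in the Siglech members. Among them were 10 of the 22 of the plasmacytoid list and 3 of the 8 of the sensing list. Top2a, a gene of dividing cells, had 0 CPM in Siglech members and 192 CPM in Siglech 0 members. Of 8 B cell genes, 4 were lower and 2, Ighm and Iglc2, were higher. The Siglech 0 group held 16 members with T cell genes and no dendritic or B cell list, 8 with conventional dendritic genes and 3 with B cell genes. The part of this mixture in each list's count was not tested.

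T cell receptor complex genes were then counted per cell. At least 1 of Cd3d, Cd3e and Cd3g had a value in 33 of 62 members (53.2%, interval 40.1% to 66.0%): 13 of 32 Siglech members (40.6%) and 20 of 30 Siglech 0 members (66.7%). Of the other cells, 6898 of 6903 (99.9%) had one. Counting only values of 2 or more, the numbers were 9 Siglech members, 16 Siglech 0 members and 6867 other cells. Over all libraries 34 cells had no CD3 value, and 29 of them (85.3%) were members. Trac, the T cell receptor alpha constant gene, had a value in 3 of 32 Siglech members, 10 of 30 Siglech 0 members and 4109 of 6903 other cells. Tcf7 and Lef1 had a value in 0 of 32 Siglech members.

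The number of genes detected moved with the CD3 values. The 19 Siglech members without a CD3 value had from 1922 to 2293 genes, with Bst2 from 16 to 41 and Siglech from 4 to 26. The 13 Siglech members with a CD3 value had from 878 to 2412 genes (median 1140), and 7 of them had under 1200 genes. Among all members, 13 of 13 with under 1200 genes had a CD3 value, 9 of them of 2 or more, against 20 of 49 with 1200 or more genes, 16 of them of 2 or more. In the other cells the medians were 1357 genes and a total of 4056. The deposited numbers may be depth-corrected, and the part of that step in these low CD3 values was not tested. In tumour CD137 plus, 1 Siglech member with 2269 genes had Cd3d at 4, Cd3e at 7, Cd3g at 7 and Trac at 6 beside Bst2 at 6, whereas 10 of the 13 Siglech members with a CD3 value had no CD3 gene above 2.

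**Figure D4:**
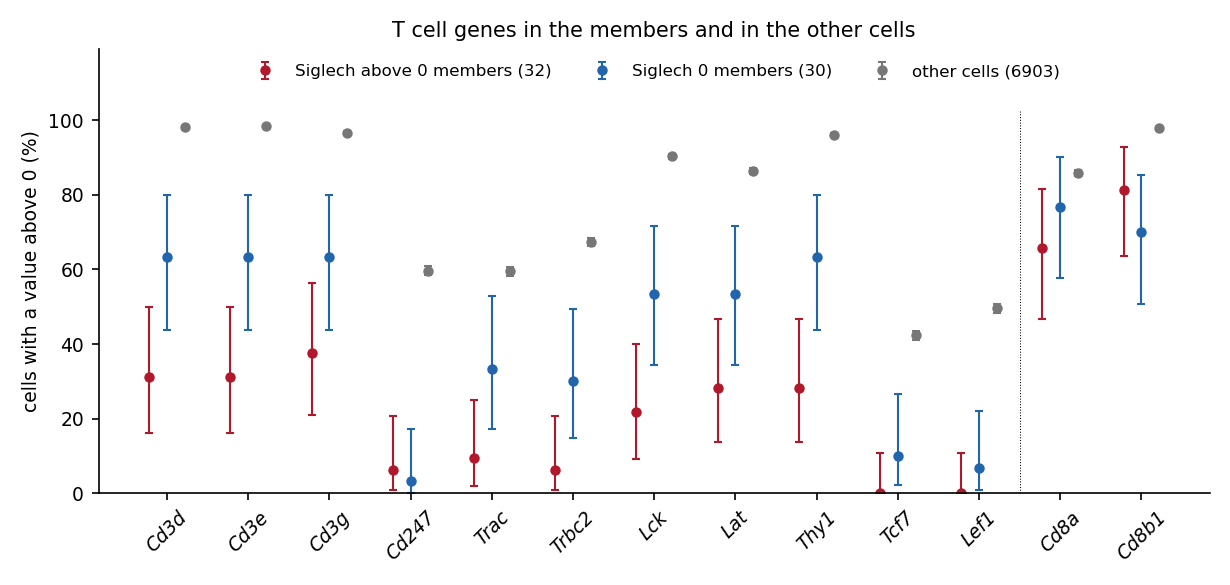
Share of cells with a value above 0 for T cell genes in Siglech members (red), Siglech 0 members (blue) and other cells (grey), with exact 95% intervals in percent. The 2 CD8 genes at the right stand apart: Cd8b1 had a value in 81.2% of Siglech members, 70.0% of Siglech 0 members and 97.9% of other cells.

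The CD8 genes did not follow CD3 in the Siglech members. Cd8a, the alpha chain, had a value in 21 and Cd8b1, the beta chain, in 26 of 32 Siglech members. Cd8a or Cd8b1 without any CD3 gene stood in 18 of 32 Siglech members, 5 of 30 Siglech 0 members and 5 of 6903 other cells. These counts depend on how many cells lacked CD3: 19 Siglech members, 10 Siglech 0 members and 5 other cells. Among those CD3-free cells, a CD8 gene stood in 18 of 19, 5 of 10 and 5 of 5, so it was not particular to Siglech members. Cd8b1 stood at 1126 CPM in Siglech members, 657 CPM in Siglech 0 members and 1557 CPM in other cells, whereas the sum of the 3 CD3 genes stood at 470 CPM in Siglech members, 1482 CPM in Siglech 0 members and 3475 CPM in other cells. Per 100 CD3 counts there were 239 Cd8b1 counts in Siglech members, 44.3 in Siglech 0 members and 44.8 in other cells.

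By library, Cd8b1 counts per 100 CD3 counts in Siglech members were 462 in tumour CD137 minus, 225 in tumour CD137 plus and 66.7 in spleen CD137 minus. They rested on 37 Cd8b1 and 8 CD3 counts in tumour CD137 minus and on 117 and 52 in tumour CD137 plus. In spleen CD137 minus they rested on 4 Cd8b1 and 6 CD3 counts. The other cells had 38.0 in tumour CD137 minus, 35.2 in tumour CD137 plus and 58.9 in spleen CD137 minus. The ratio was thus above that of the other cells in both tumour libraries, and in spleen CD137 minus the 2 ratios lay close together. In tumour CD137 minus, Cd8b1 itself stood at 806 CPM in Siglech members and 1284 CPM in other cells, and CD3 at 174 and 3383 CPM. In tumour CD137 plus, Cd8b1 stood at 1492 CPM in Siglech members and 1425 CPM in other cells, and CD3 at 663 and 4045 CPM. The higher ratios went with low CD3. Of the 19 Siglech members without CD3, 13 had Cd8b1, up to 15 in a cell, and all 13 were from tumour.

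**Figure D5:**
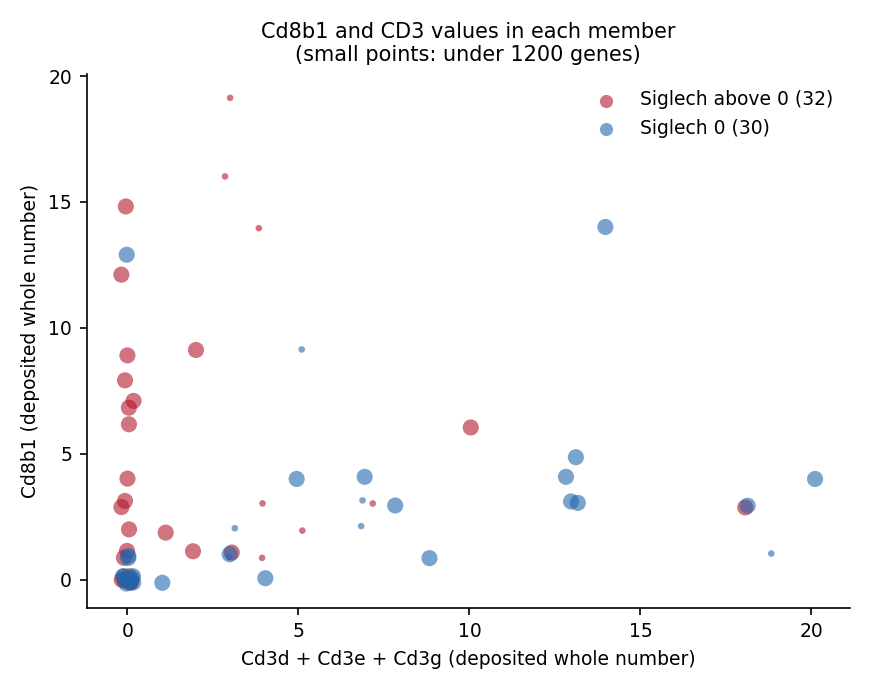
Cd8b1 (y) against the sum of Cd3d, Cd3e and Cd3g (x) in each member, as deposited whole numbers with a small random shift so that points do not hide each other; red points are the 32 Siglech members and blue points the 30 Siglech 0 members, drawn small where a member had under 1200 genes. Siglech members without CD3 line the left edge, with Cd8b1 up to 15.

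Within each tissue the members of the CD137 minus and plus fractions are set side by side, as 1 library each. In tumour, Siglech members had Bst2 at 4293 CPM (counting interval 3714 to 4936) in CD137 minus and 4144 CPM (3706 to 4620) in CD137 plus, and Cd74 at 12661 CPM (11652 to 13734) in CD137 minus and 12293 CPM (11529 to 13094) in CD137 plus. Both pairs of intervals overlapped. Cox6a2 was 2702 CPM (2248 to 3222) in CD137 minus and 1760 CPM (1478 to 2079) in CD137 plus. In CD137 minus 1 cell held 43 of the 124 Cox6a2 counts; with the highest cell of each library left out, a choice made after seeing the data, Cox6a2 was 2009 CPM (1595 to 2496) in CD137 minus and 1583 CPM (1310 to 1898) in CD137 plus, and the intervals overlapped. Over all tumour members, H2-Aa was 2580 CPM in CD137 minus and 5665 CPM in CD137 plus; the conventional dendritic group, with its high H2-Aa, had 0 members in CD137 minus and 6 in CD137 plus. In Siglech members alone H2-Aa was 3007 CPM (2526 to 3553) in CD137 minus and 3239 CPM (2853 to 3663) in CD137 plus. The spleen fractions had 10 and 2 members, too few to set against each other gene by gene.

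Tnfrsf9 had a value in 2 of 32 Siglech members, both of tumour CD137 plus. Among all members it stood at 14.1 CPM in tumour CD137 minus (1 count in 1 of 14 members) and 266 CPM in tumour CD137 plus (39 counts in 9 of 36). Of the 40 Tnfrsf9 counts in members, 36 came from 7 of the 16 Siglech 0 members with T cell genes. Tnfsf9, which encodes the ligand of CD137, was at 0 in all 32 Siglech members and at 120 CPM in Siglech 0 members.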

How the data were processed

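Single-cell 5′ RNA-seq of cells isolated as CD8 T cells gave 4 libraries, 1 per tissue and CD137 fraction. Cell Ranger 3.0.2, Seurat 3.0 and the mm10 build are named in the submitters' processing notes. The deposited table holds natural log values, ln(1 + whole number), for 6965 cells and 12763 genes; the authors' normalization is not stated there. Values were converted back to whole numbers, summed over cells and scaled to CPM (per 1000000); no count model was used, and no doublet caller was run.

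The members, the 27 gene lists and the named-gene rule were chosen with earlier results of these data known. Named genes were the 25 furthest above and 10 furthest below 0 for members against other cells, and 12 each way between the Siglech subsets, in each case among measured genes with a value in at least 30% of the cells of the higher population; receptor and immunoglobulin V segments, mitochondrial, ribosomal, haemoglobin and unnamed genes, Xist, Tsix and Y-linked genes were left out. Some genes that the rule or the lists held are not reported here. The rule counting list genes rare in the other cells was added after seeing the data. Promoters were searched over the 250 bases before each start; over windows of 300 bases the motif stood in 37.4% of windows. Intervals are exact (Clopper-Pearson for shares, Poisson for sums, 95%). Ratios were tested on simulated data. Tools were matplotlib 3.10.9, pandas 2.3.3, scipy 1.17.1, numpy 2.4.6 and Python 3.11.15.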

Additional observations from a re-analysis of the deposited data

How the results depend on the processing

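The share of members in tumour CD137 plus (1.30%) became 2.03% with 2 markers needed and 0.795% with 4, and that of spleen CD137 plus became 0 with 4, since both rule genes outside class II were listed at 0 there; the other shares stayed within their intervals, also after thinning every cell to a total of 2900. Genes higher in members (766) numbered 2627 without the filter on low values, 1230 in members without a CD3 value and 771 to 1158 with 1 library left out, and genes lower in members (213) numbered 615 without the filter, 356 with 4 markers needed, 460 without CD3 members, 404 without members having 3 T cell genes at 2 or more (added after seeing the data), and 205 to 275 with 1 library left out. Between the Siglech subsets, 1443 genes were higher and 1353 lower without the filter, against 838 and 668; leaving out 1 library gave 911 to 1053 higher and 769 to 1116 lower. The Siglech share of members (51.6%) became 81.6% with 4 markers needed, a limit that itself favours Siglech members. It ran from 47.9% to 53.9% with 1 library left out, and the CD3 share (53.2%) ran from 50% to 55%. In the Siglech comparison the B cell list median ran from −3.27 to 0.35 with 1 library left out, with 0.35 without spleen CD137 minus, which held all 3 Siglech 0 members with B cell genes, and the plasma cell list median from −0.045 to 4.88, with −0.045 without tumour CD137 plus (the cause was not tested); no other list median or named gene changed sign. No paired analysis was possible because no result comes from a test: tissue and CD137 groups are 1 library each, and the members were chosen from the values compared. Counts of 62 cells, and genes listed at 0 in a whole library, limit what absence of a value can show.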

Other observations

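Some genes of the T cell lists were higher in Siglech members than in Siglech 0 members, although most of those lists were lower. Klf2, a factor of quiescence and trafficking, had 1118 CPM in Siglech members and 312 CPM in Siglech 0 members. Il7r, the IL-7 receptor alpha chain, had 321 CPM in Siglech members and 112 CPM in Siglech 0 members. Ccl4, the only effector gene called higher in this split, had 1617 CPM in Siglech members and 569 CPM in Siglech 0 members. Lag3, an inhibitory receptor that binds class II, had 392 CPM in Siglech members and 312 CPM in Siglech 0 members and was not called. All are values of the same 62 cells, with no test.

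Of the 35 other cells with a Siglech value, 1 had no CD3 value and 5 had 2 or more melanoma genes. With only list genes rare in the other cells counted, a choice that keeps such cells few, 8 of the 9 other cells with the plasmacytoid list also carried the T cell list, and of the 9 that carried the macrophage list, 9 did.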
